A study of Mus musculus with 17 samples.

Results

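The cytosolic ribosomal protein genes were described over 17 expression arrays of cells sorted from the cortex of mouse embryos. Members were the genes whose symbol in the array annotation names a protein of the large (Rpl) or small (Rps) ribosomal subunit, including Rplp0, Rplp2 and Rpsa and paralogs such as Rpl22l1 and Rps27l. The Rps6k kinases, the pseudogenes and the binding protein gene Rps19bp1 were left out. This gave 105 probe sets with a single gene symbol, out of 45037 probe sets that are not controls, and they stood for 49 genes: 26 of the large subunit with 48 probe sets and 23 of the small subunit with 57. A further 110 probe sets list a ribosomal protein gene together with other symbols; they were counted and not named. All probe sets of a gene were kept, because 24 genes had more than 1 and up to 6.

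The embryos carried hGFAP-eGFP, a transgene that places enhanced green fluorescent protein (GFP) under the human GFAP promoter, which is active in radial glia. Radial glia are the neural stem and progenitor cells that line the ventricle of the developing cortex. Cells of embryonic day 14 (E14) were sorted for high GFP and Prominin (n = 4), low GFP and Prominin (n = 3), high GFP (n = 3) or low GFP (n = 3), and cells of embryonic day 18 (E18) for GFP and Prominin (n = 4). Prominin is a membrane protein that radial glia carry on their apical surface. The labels of the last pair of E14 groups, sorted for high or low GFP alone, name no Prominin gate, and these groups are called ungated here. All 11 Prominin-selected (gated) arrays and ungated GFP-high replicate 1 were labelled with the MessageAmp II kit, and the other 5 arrays with the Affymetrix kit. Nothing in the labels ties the replicates to different litters. The p-values below therefore reflect the spread among these samples alone, and that spread may be technical.

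Ribosomal proteins bind the ribosomal RNAs and form the small subunit, which decodes the mRNA, and the large subunit, which joins amino acids. Their genes are transcribed at a high and similar rate in nearly every cell, and most of their mRNAs begin with a run of pyrimidines, the 5′ terminal oligopyrimidine (TOP) tract, through which growth signals set how strongly they are translated. In the developing cortex, dividing progenitors make many ribosomes, and protein synthesis is adjusted as they turn into neurons. An array measures the amount of mRNA and not its translation.

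The sequence around the start site was printed for some of the genes named below, because the family is known for a TOP tract there. The genes shown are a selection and not a ranking. Rpl12, Rpl22, Rpl41, Rps6, Rps7, Rps15, Rps18 and Rps25 had larger called differences than Rpl11 and were not printed. Sequences are from RefSeq (build GRCm38.p6), 5′ to 3′ on the strand of the gene, with 45 bases before the annotated start site and 20 from it onward. Capitals mark an unbroken run of at least 8 C or T bases that starts within 10 bases of the start site. What is marked depends on the annotated start and on this cut-off. A marked run was not shown to be the TOP tract, and a window without one may still hold a tract.
Rpl27a, chr7:109519150-109519214, plus strand: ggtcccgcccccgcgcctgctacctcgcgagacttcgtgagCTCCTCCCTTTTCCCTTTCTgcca
Rpl14, chr9:120571472-120571536, plus strand: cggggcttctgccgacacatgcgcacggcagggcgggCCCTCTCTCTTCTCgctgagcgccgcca
Rps10, chr17:27635225-27635289, minus strand: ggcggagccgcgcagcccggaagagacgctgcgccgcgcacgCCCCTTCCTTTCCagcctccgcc
Rps9, chr7:3703996-3704060, plus strand: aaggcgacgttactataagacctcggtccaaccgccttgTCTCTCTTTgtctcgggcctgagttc
Rps24, chr14:24490633-24490697, plus strand: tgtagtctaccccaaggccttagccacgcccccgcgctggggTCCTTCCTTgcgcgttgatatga
Rpl11, chr4:136053374-136053438, minus strand: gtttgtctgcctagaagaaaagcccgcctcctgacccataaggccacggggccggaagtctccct

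The run was 20 bases long in Rpl27a, 14 in Rpl14, 13 in Rps10 and 9 in Rps9 and in the first of 2 windows of Rps24, the one printed, while the window of Rpl11 had none at its annotated start. Among the genes not printed, the longest run near the start was 3 bases in Rpl41 and Rps15, 4 in Rps25 and 5 in Rps7 and Rpl22. It was 7 bases in Rpl12, 10 in Rps6 and 11 in Rps18. RefSeq windows of 300 bases were found for 43 of the 49 genes (51 windows). Of these, 15 windows (29.4%) held a run of at least 8 bases near the start, against 9.21% of all 32851 windows of the same length. The motif CCGGAA, which ETS factors are known to bind, was searched on both strands and was present in 28 windows (54.9%), against 14.9% of all windows. The motif TATAAA was present in 6 windows (11.8%), against 13.6%. The windows printed in part were searched over their full 300 bases. Those of Rpl27a, Rpl14 and Rps10 had both the run and CCGGAA, those of Rps9 and Rps24 the run only, and that of Rpl11 CCGGAA only. Within the bases printed, CCGGAA occurs only in Rps10 and Rpl11. In Rpl27a and Rpl14 it lies outside them. These matches describe the letters of these windows and show no binding. Neither the annotation nor the sequences used here place the array probes on the transcripts.

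Ribosomal protein probe sets gave some of the brightest signals on the arrays. A signal also depends on the probes, so levels are compared between arrays and not between genes. Levels are given as log2(signal + 16) after quantile normalisation, a scale on which a signal of 0 lies near 4. The median member lay at 12.45, and the brightest probe set of each gene at a median of 12.85, against 5.55 over all probe sets. The means of 74 members (70.5%) were above the 90th percentile of all probe sets, and 13 members lay below the median of all. Member means ran from 4.33 to 13.70. Several dim probe sets belonged to genes with other, bright probe sets. Rps18, for example, had 3 probe sets between 11.38 and 13.51 on every array and 3 others between 4.20 and 6.13.

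Of the 49 genes, 15 had even their brightest probe set below 12, and the paralogs were among them. Rpl3l, the striated-muscle paralog of Rpl3, lay between 4.07 and 5.24 on all 17 arrays, close to the level of an empty probe set. Rpl39l, a paralog of Rpl39 known from the testis, lay between 4.12 and 5.63. Neither paralog passed the test in any comparison. Rps4l, a paralog of the X-linked Rps4x, was dim and scattered, between 4.21 and 7.10. The brightest probe set of Rps4x was even over the arrays, between 13.31 and 13.57.

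Rpl22l1, the paralog of the RNA-binding protein Rpl22, was well expressed. Its levels were 9.15, 10.84, 10.96 and 11.07 in gated GFP-high cells, 10.75, 8.82 and 10.93 in gated GFP-low cells and 10.77, 10.98, 10.83 and 10.71 at E18. Ungated GFP-high cells had 11.41, 11.17 and 11.30, and ungated GFP-low cells 10.78, 10.86 and 10.76. The ungated groups did not overlap, but Rpl22l1 was called in no comparison, and its 2 lowest values were those of gated GFP-high replicate 1 and gated GFP-low replicate 2. Rps27l, the p53-inducible paralog of Rps27, ran from 9.42 to 11.24 on its brightest probe set. Rps27 itself had only a probe set between 5.78 and 8.22, so the pair cannot be ranked from these values.

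The acidic stalk proteins, which recruit elongation factors to the large subunit, were bright in all groups. Rplp0 lay between 13.15 and 13.91 and Rplp2 between 13.23 and 13.68, and neither was called in any comparison. Rpsa, the small-subunit protein also known as the laminin receptor, lay between 12.89 and 13.91 and was called in 2 comparisons described below.

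After quantile normalisation, which gives every array the same distribution of values, the median of the 49 brightest probe sets was 12.89 ± 0.09 (SD, n = 4) in gated GFP-high, 12.81 ± 0.07 (n = 3) in gated GFP-low, 12.93 ± 0.04 (n = 3) in ungated GFP-high, 12.73 ± 0.04 (n = 3) in ungated GFP-low and 12.90 ± 0.11 (n = 4) in E18 cells. On the scale as deposited it ran more widely, from 12.46 to 13.34 over the arrays, and in another order, with group means of 12.82, 12.77, 13.07, 12.96 and 12.73. The 105 members made up 3.97% to 6.74% of the summed signal of an array. The log2 difference between the 3′ and 5′ Gapdh control probe sets, a sign of how far labelling reached along the mRNA, ran from 0.54 to 2.29 in gated E14 cells. It ran from -0.25 to 0.18 in ungated cells and from -0.21 to 1.00 at E18. The control for 18S ribosomal RNA gave a signal of 2292 to 5192 in gated E14 cells, 175 to 627 in ungated cells and 302 to 583 at E18. The 18S signal therefore separated the gated E14 arrays from all others without overlap, also from E18 arrays of the same kit and gate. Its part in the comparisons of gated E14 cells with other cells cannot be told apart from those groups.

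**Figure D1:**
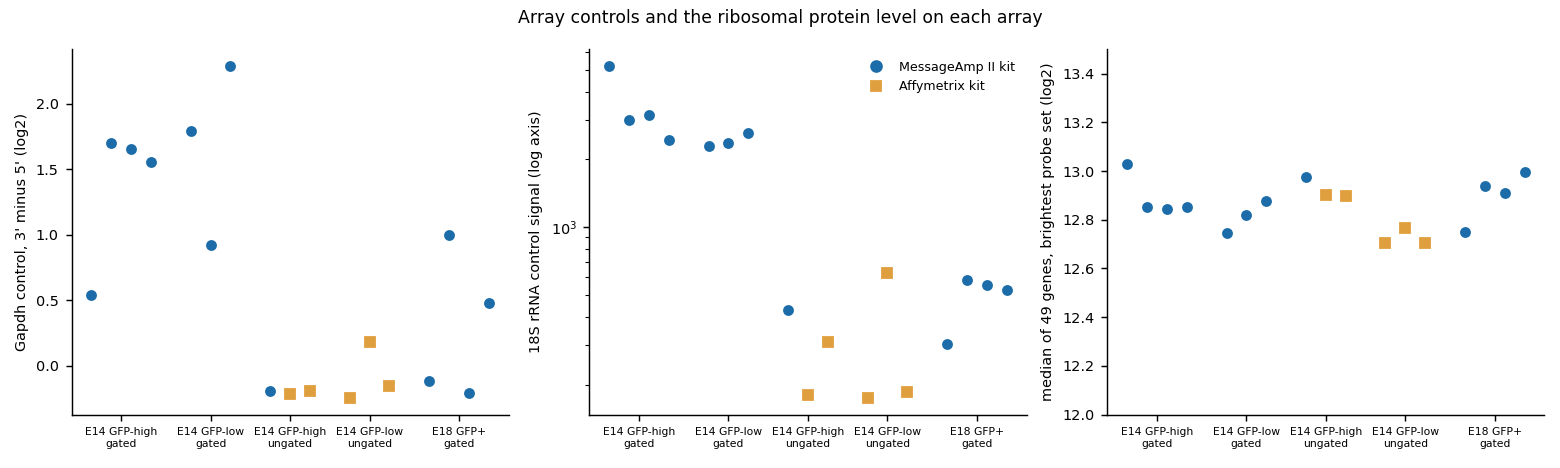
Each point is 1 of the 17 arrays, by group, with circles for the MessageAmp II kit and squares for the Affymetrix kit: left, the log2 difference between 3′ and 5′ Gapdh controls; middle, the 18S control signal on a log axis; right, the median log2 level of 49 ribosomal protein genes. The 18S signal was at least 2292 on the 7 gated E14 arrays and at most 627 on the others, while the median of the genes lay between 12.70 and 13.03 on this quantile-normalised scale (12.46 to 13.34 as deposited).

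Between gated GFP-high and GFP-low cells at E14, no ribosomal protein probe set passed the test. The count was 0 of 105 with limma at an adjusted p under 0.05, against 0.342% of all probe sets called, and 3 members had an unadjusted p under 0.05. Groups did not overlap for 7 members (6.67%), against 10.6% of all probe sets. The median member was higher in GFP-high cells by 0.10, against 0.00 over all probe sets. On the scale as deposited these medians were 0.05 and -0.02. With probe sets of 1 gene counted apart, 76 of 105 members had a positive difference. The largest difference was that of a single probe set of Rps10, a small-subunit protein whose gene is mutated in some patients with Diamond-Blackfan anaemia. Its probe set 1439374_x_at lay at 12.41, 11.41, 11.75 and 11.99 in gated GFP-high cells and at 10.69, 10.75 and 10.41 in gated GFP-low cells. The groups did not overlap, but the difference of 1.27 ± 0.26 (SE) had an adjusted p of 0.0638. With an intensity trend in the variance, with a pseudocount of 64, without the dimmest probe sets and with all 17 arrays in the fit, 1 member was called each time.

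Between ungated GFP-high and GFP-low cells, where the progenitor and neuron markers differed strongly, 1 of 105 members passed the test (0.952%), against 8.75% of all probe sets. It was higher in GFP-high cells, as were 4.23% of all probe sets. Again 76 members had a positive difference, and the median was 0.10, against 0.01 over all probe sets. On the scale as deposited these medians were 0.02 and 0.01. Of the members, 32 (30.5%) had groups that did not overlap, against 27.6% of all probe sets. The called probe set was 1455195_at of Rps24, a small-subunit protein needed to process the precursor of 18S RNA. Its levels were 8.26, 8.09 and 8.01 in ungated GFP-high cells and 6.97, 6.21 and 6.84 in ungated GFP-low cells. Every GFP-high array was above every GFP-low array. The difference was 1.45 ± 0.26 (SE; limma, adjusted p = 0.0137). It was lost within the Affymetrix kit, which leaves out GFP-high replicate 1 (1.37, adjusted p = 0.0626), and without GFP-high replicate 2 (1.46, adjusted p = 0.0539).

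The 4 bright probe sets of Rps24 differed in the same direction but less, by 0.42, 0.33, 0.30 and 0.24. On each of them every ungated GFP-high array was above every ungated GFP-low array, and none was called. The remaining Rps24 probe set, the dimmest, differed by -0.04 with overlapping groups. Beside this result, the 8 neuron markers (Tubb3, Dcx and others) were all called lower in ungated GFP-high cells, with a summed log2 signal of 12.77 to 12.87 against 14.88 to 15.58. The 10 radial glia markers were all called higher, with 14.80 to 15.20 against 12.54 to 13.04, and so were all 13 cell division genes. In mixed cells, fewer cells of a type and less RNA per cell cannot be told apart. The part of these cell types in the Rps24 result was not tested.

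The difference between both GFP contrasts was tested directly. It was called for 1 of 105 members (0.952%), against 3.57% of all probe sets and 1.74% in the same direction. This was again Rps24 1455195_at, whose GFP contrast was 0.16 ± 0.20 in gated and 1.45 ± 0.26 in ungated cells, a difference of -1.29 ± 0.31 (SE; limma, adjusted p = 0.027). The gated groups, at 7.84, 7.67, 8.10 and 8.32 for GFP-high and 7.72, 7.72 and 8.03 for GFP-low cells, overlapped and lay near the ungated GFP-high level. The call was lost without gated GFP-high replicate 2 (adjusted p = 0.0567), gated GFP-low replicate 3 (0.0757), ungated GFP-high replicate 1 (0.0708) or ungated GFP-low replicate 2 (0.0729). It was also lost with a pseudocount of 1 and with the labelling kit as a covariate. For Rps10 1439374_x_at the difference of contrasts was 1.24 ± 0.36, with an adjusted p of 0.0724.

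**Figure D2:**
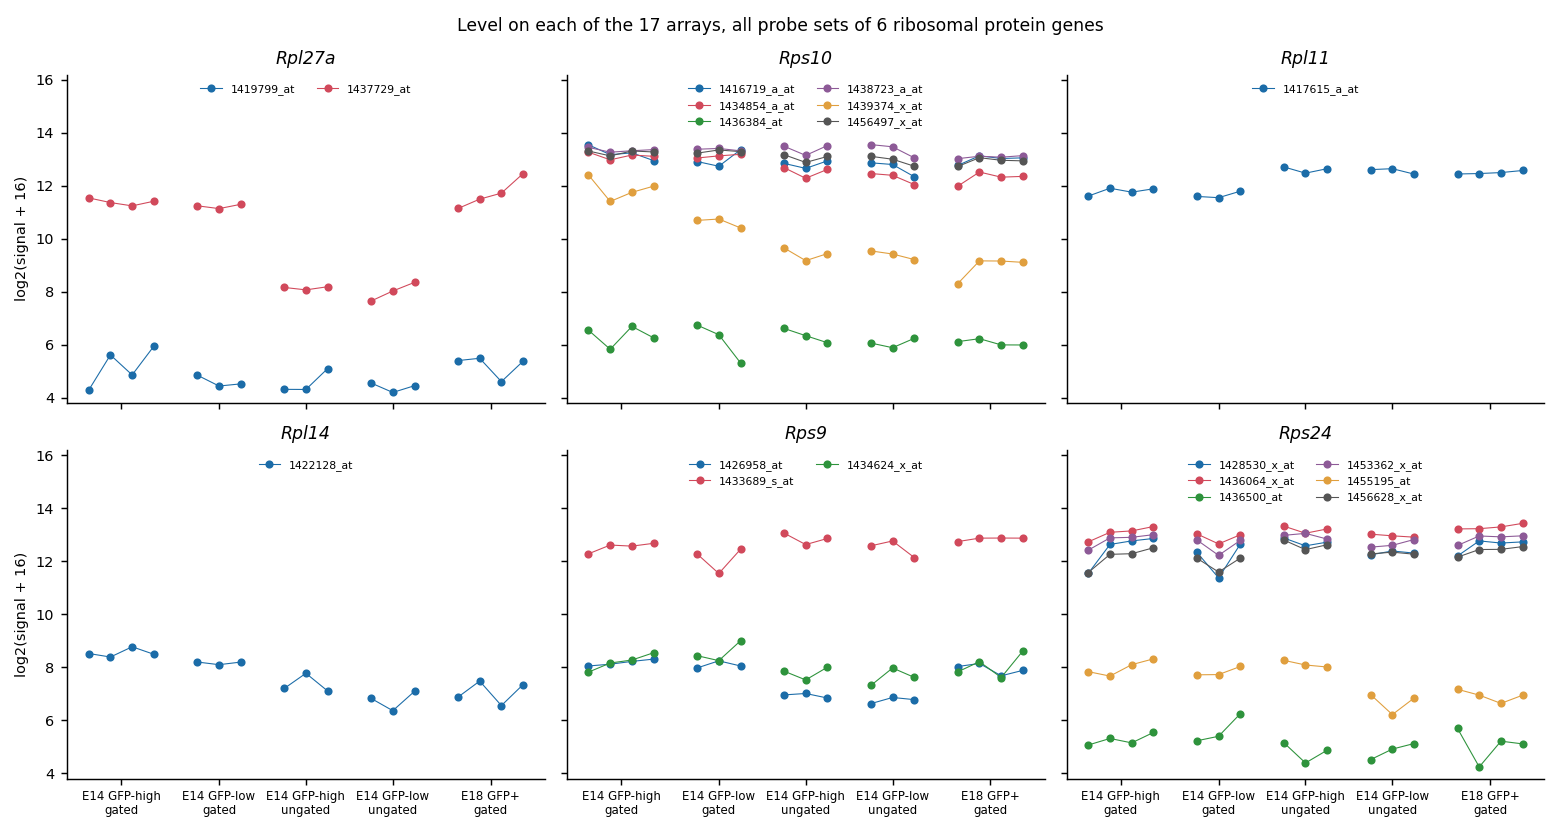
Each panel shows 1 ribosomal protein gene, with the level on each of the 17 arrays on the log2(signal + 16) scale and 1 colour per probe set; lines only join arrays of a group. Rpl27a 1437729_at was at least 11.14 on all gated arrays and at most 8.35 on the ungated ones, and Rps10 1439374_x_at ran from 12.41 down to 8.30, while 4 other Rps10 probe sets were at 11.98 or more on every array.

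At E18, gated cells were compared with both gated E14 groups, which share the E18 arrays. Against E14 GFP-high cells, 12 of 105 members were called (11.4%), 1 higher and 11 lower, against 22% of all probe sets (10.8% higher and 11.2% lower). Against E14 GFP-low cells, 10 members were called (9.52%), 4 higher and 6 lower, against 16.4% of all probe sets (8.43% higher and 7.96% lower). On the scale as deposited the split against GFP-low cells was 2 higher and 6 lower. On that scale the median of all probe sets against GFP-high cells moved from -0.02 to 0.10. The median member differed by -0.07 and 0.01 in these comparisons, against -0.02 and -0.04 over all probe sets. On the scale as deposited they were -0.08 and -0.05, against 0.10 and 0.04. The groups did not overlap for 26 (24.8%) and 38 members (36.2%), against 25.4% and 26.9% of all probe sets.

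The probe set with the largest fall at E18 was again Rps10 1439374_x_at. It lay at 8.30, 9.17, 9.16 and 9.11 at E18, below all 7 gated E14 arrays, and differed from GFP-high cells by -2.95 ± 0.24 (SE; adjusted p = 5.16e-06) and from GFP-low cells by -1.68 ± 0.26 (adjusted p = 0.000993). A second Rps10 probe set, 1434854_a_at, was at 11.98, 12.52, 12.33 and 12.36 at E18 and at 12.98 to 13.27 on the gated E14 arrays, and differed by -0.83 in both comparisons (adjusted p = 0.00164 and 0.00452). The brightest Rps10 probe set, 1438723_a_at, ran from 13.02 to 13.14 at E18 and from 13.27 to 13.45 on the gated E14 arrays and was not called. Its values were lower on every E18 array than on every gated E14 array, by -0.26 and -0.28, so the size of the fall differed widely between probe sets of this gene.

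Rpl14, a large-subunit protein, lay at 6.87, 7.48, 6.55 and 7.35 at E18. It lay at 8.52, 8.39, 8.77 and 8.49 in gated E14 GFP-high cells and at 8.20, 8.10 and 8.20 in gated GFP-low cells. All E18 arrays were below all gated E14 arrays, and Rpl14 differed by -1.48 ± 0.20 (adjusted p = 0.000202) and -1.10 ± 0.22 (adjusted p = 0.00423). Its ungated E14 means were 7.36 (GFP-high) and 6.76 (GFP-low), on either side of the E18 mean of 7.06. Rps6, the small-subunit protein that is phosphorylated by the S6 kinases when growth signalling is active, was at 8.59, 8.87, 8.52 and 9.01 at E18 and at 9.46 to 9.69 on the gated E14 arrays. It differed by -0.87 ± 0.15 (adjusted p = 0.00117) and -0.83 ± 0.16 (adjusted p = 0.00441). Its ungated E14 means were 9.24 (GFP-high) and 8.48 (GFP-low), against 8.74 at E18. The falls of Rpl14 and Rps6 were thus falls from the gated E14 level and not from that of all E14 groups. These arrays measure the mRNA of Rps6 and not the phosphorylation.

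Rps24 1455195_at was also lower at E18, at 7.17, 6.95, 6.64 and 6.95, with differences of -1.05 ± 0.18 (adjusted p = 0.00112) and -0.90 ± 0.20 (adjusted p = 0.00787). This level is close to that of ungated E14 GFP-low cells. The bright Rps24 probe sets went the other way, by 0.24, 0.22, 0.15 and 0.06 against GFP-high cells. Against GFP-low cells they differed by 0.46, 0.40, 0.48 and 0.25. The dimmest Rps24 probe set differed by -0.20 and -0.56. None of these was called, so a fall of Rps24 at E18 rests on 1455195_at alone. Rpl7l1, a paralog of Rpl7, was the only gene with several probe sets of which all were called the same way: its 3 probe sets fell by 0.53, 0.80 and 0.63 against gated GFP-high cells. Its brightest probe set lay at 9.07, 9.30, 8.87 and 8.85 at E18 and at 9.59, 9.63, 9.75 and 9.63 in gated GFP-high cells. The call of the probe set 1426386_at was lost without E18 replicate 4 or 5 (adjusted p = 0.0516 and 0.0568). Against GFP-low cells 1 of the 3 was called, 1439780_at (-0.70, adjusted p = 0.0398), and that call was lost without any of 5 of the 7 arrays (up to 0.126).

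Smaller falls against GFP-high cells were those of Rpsa (-0.52), Rps18 1455572_x_at (-0.52) and Rpl8 (-0.50). Each of these calls was lost when single arrays were left out: Rpsa without gated GFP-high replicate 3 or E18 replicate 2 (adjusted p = 0.0568 and 0.0611), Rps18 without E18 replicate 2 (0.0574), and Rpl8 without any of 6 of the 8 arrays (up to 0.107). Rpl8, which lies near the peptidyl transferase centre, ran from 12.04 to 12.20 at E18 and from 12.40 to 13.03 in gated GFP-high cells.

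Rpl11 was the member called higher at E18 in both comparisons. Rpl11 is a large-subunit protein that binds 5S RNA and, when free, the p53 regulator Mdm2. It was at 12.45, 12.46, 12.50 and 12.58 at E18, at 11.61, 11.91, 11.76 and 11.89 in gated E14 GFP-high cells and at 11.60, 11.55 and 11.80 in gated GFP-low cells. The E18 arrays lay above every gated E14 array, by 0.70 ± 0.14 (adjusted p = 0.00261) and 0.85 ± 0.15 (adjusted p = 0.00208). Against GFP-low cells, Rps15 1416089_at (0.76), Rps19 (0.77) and Rps9 1433689_s_at (0.75) were also called higher. Rps19 is the gene most often mutated in Diamond-Blackfan anaemia, and Rps15 and Rps9 are small-subunit proteins. The brightest Rps15 probe set differed by 0.12 and was not called. The other, dimmer Rps9 probe sets went the other way, by -0.50 and -0.16, and were not called. The calls of Rps15, Rps19 and Rps9 depended on single arrays. Without gated GFP-low replicate 2 the differences were 0.53 for Rps15 (adjusted p = 0.0868), 0.53 for Rps19 (0.142) and 0.48 for Rps9 (0.111), and leaving out other arrays ended the calls of Rps19 and Rps9 4 more times each and that of Rps15 once.

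E18 arrays differed from gated E14 arrays in the 18S control, in the Gapdh difference, where ranges overlapped, and in markers. Against gated GFP-high cells, 7 of 8 neuron markers were called higher, 12 of 13 cell division genes lower, and 2 of 10 radial glia genes higher and 7 lower. Against gated GFP-low cells 3 neuron markers were higher and 1 lower, 1 cell division gene higher and 8 lower, and 2 radial glia genes higher and 5 lower. The 3 basal progenitor markers were lower in both. The summed log2 signal of the neuron markers was 14.15 to 14.41 at E18, 13.19 to 13.42 in gated E14 GFP-high and 14.05 to 14.23 in gated GFP-low cells. Their part in the differences of the ribosomal protein probe sets was not tested. With the Gapdh difference as a covariate the counts against GFP-high and GFP-low cells were 15 (9 higher, 6 lower) and 13 (12 higher, 1 lower). Most calls were thus higher with this covariate, where most were lower without it. The share of all probe sets called in that fit is not given here, so these counts have no background to be read against. With the 18S signal as a covariate no probe set of the whole array was called in either comparison. That signal does not overlap between these groups, so this fit cannot tell its part from that of the groups.

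**Figure D3:**
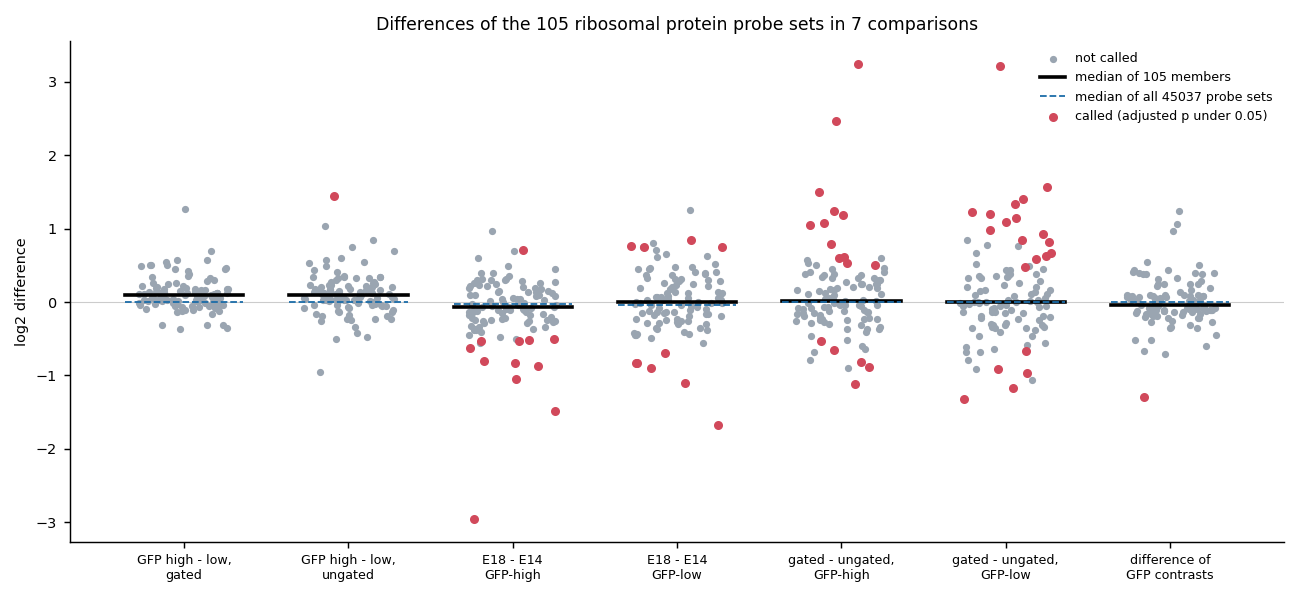
Points are the log2 differences of the 105 ribosomal protein probe sets in 7 comparisons, spread sideways at random, with called ones in red, the median of the members as a solid line and the median of all 45037 probe sets as a dashed line. Medians lie between -0.07 and 0.10, and single probe sets of Rpl27a (3.25 and 3.22) and Rps10 (2.47 and -2.95) stand far from the rest.

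Between gated and ungated cells at E14, more members were called. In GFP-high cells 17 of 105 passed the test (16.2%), 12 higher in gated cells and 5 lower, against 18.4% of all probe sets (9.59% higher and 8.84% lower). In GFP-low cells 21 passed (20%), 16 higher and 5 lower, against 16.4% of all probe sets (8.44% higher and 7.94% lower). On the scale as deposited these splits were 9 higher and 6 lower, and 12 and 12. The medians of the members were 0.01 and 0.00, and -0.11 and -0.24 on the scale as deposited. In these comparisons 42 (40%) and 52 members (49.5%) had groups that did not overlap, against 28.6% and 29.5% of all probe sets. Gate, 18S signal, the Gapdh difference (0.54 to 2.29 on gated and -0.25 to 0.18 on ungated arrays) and, for 5 of 6 ungated arrays, labelling kit differ together here. Cell type markers moved as well. In GFP-high cells 6 of 8 neuron markers were higher with the gate, and 8 of 13 cell division and 6 of 10 radial glia genes lower. In GFP-low cells 5 of 8 neuron markers were lower, and 9 of 13 cell division, 5 of 10 radial glia, 3 of 3 basal progenitor and 4 of 5 Cajal-Retzius genes higher. The summed neuron signal was 13.19 to 13.42 in gated and 12.77 to 12.87 in ungated GFP-high cells, and 14.05 to 14.23 and 14.88 to 15.58 in GFP-low cells. The part of these markers and controls in the members' differences was not tested. Within the MessageAmp kit, with a single ungated GFP-high array that is assumed to vary like the others, 8 members were called in GFP-high cells. In GFP-low cells kit and gate cannot be told apart within a kit. With kit as a covariate over all 17 arrays 2 members were called, Rpl27a and Rps9. That fit takes the kit difference from ungated GFP-high cells alone, 1 array against 2, and carries it over to GFP-low cells. It is therefore no control for kit in GFP-low cells themselves.

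Rpl27a had the largest difference of the family. Rpl27a is a large-subunit protein, and its probe set 1437729_at lay at 11.54, 11.37, 11.24 and 11.42 in gated GFP-high cells and at 11.24, 11.14 and 11.30 in gated GFP-low cells. The ungated cells had 8.16, 8.07 and 8.19 (GFP-high) and 7.65, 8.03 and 8.35 (GFP-low), so that about 3 log2 units lay between the groups with no overlap. The difference was 3.25 ± 0.25 (SE) in GFP-high cells, a fold of 9.52 (adjusted p = 5.27e-07), and 3.22 ± 0.26 in GFP-low cells (adjusted p = 1.57e-06). These calls held in each of the 20 and 18 alternatives run, with an adjusted p of at most 0.0341 and 0.0163. Within the MessageAmp kit, where ungated GFP-high replicate 1 (8.16) is the lone ungated array, the difference was 3.23 (adjusted p = 0.000501). With kit as a covariate, under the limit given above, the difference in GFP-low cells was 3.19 (adjusted p = 0.00692). At E18 the level was 11.14, 11.50, 11.72 and 12.46, and did not differ by the test from gated E14 cells (0.31 ± 0.23 and 0.48 ± 0.25, adjusted p = 0.411 and 0.241). The other Rpl27a probe set, 1419799_at, lay between 4.20 and 5.95 on all arrays, near the floor, and gave no second measurement of the gene.

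Rps10 1439374_x_at was at 9.66, 9.17 and 9.44 in ungated GFP-high and 9.54, 9.42 and 9.22 in ungated GFP-low cells, below all gated E14 arrays. It differed by 2.47 ± 0.25 (adjusted p = 5.28e-06) and 1.22 ± 0.27 (adjusted p = 0.00429). Within the MessageAmp kit the first was 2.23 (adjusted p = 0.00416), and with kit as a covariate the second was 0.87 (adjusted p = 0.374). Its order over the 5 groups was gated GFP-high, gated GFP-low, both ungated groups, which overlapped, and E18, whose replicates 3, 4 and 5 came close to the ungated arrays. Rps10 1434854_a_at was higher in gated cells by 0.60 (adjusted p = 0.0242, lost without gated GFP-high replicate 1 or 3 or ungated GFP-high replicate 2, at up to 0.109) and 0.82 (adjusted p = 0.00645).

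A small-subunit member with a similar contrast was Rps9 1426958_at. It lay at 8.05, 8.12, 8.22 and 8.31 and at 7.97, 8.24 and 8.05 in the gated groups and at 6.96, 7.01 and 6.84 and 6.63, 6.86 and 6.78 in the ungated groups. No gated array was as low as an ungated one, and the differences were 1.24 ± 0.16 (adjusted p = 5.11e-05) and 1.33 ± 0.17 (adjusted p = 7.89e-05). The first was 1.22 within the MessageAmp kit (adjusted p = 0.00771), and the second 1.30 with kit as a covariate (adjusted p = 0.0494). The brightest Rps9 probe set, 1433689_s_at, went the other way in both, by -0.32 and -0.41, and was not called. Rps25, a small-subunit protein needed by some viral internal ribosome entry sites, lay at 9.22, 9.45, 9.50 and 9.27 and at 9.56, 9.02 and 9.39 in gated cells. In ungated cells it lay at 8.19, 8.23 and 8.43 and at 8.17, 7.75 and 8.43. Rps25 was higher in gated cells by 1.08 ± 0.22 (adjusted p = 0.0018) and 1.20 ± 0.23 (adjusted p = 0.00169).

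Rpl14 was at 7.20, 7.77 and 7.11 in ungated GFP-high and 6.83, 6.36 and 7.09 in ungated GFP-low cells. The gated arrays, given above, were all higher, by 1.18 ± 0.24 (adjusted p = 0.00209) and 1.40 ± 0.26 (adjusted p = 0.00123). Within the MessageAmp kit the difference in GFP-high cells was 1.34 for Rpl14 (adjusted p = 0.0188) and 1.17 for Rps25 (adjusted p = 0.0291). Rpl41 1454639_x_at, of the smallest ribosomal protein, was higher by 1.50 ± 0.33 and 1.56 ± 0.36 (adjusted p = 0.00401 and 0.00581). The brightest Rpl41 probe set lay between 13.45 and 13.93 on all arrays and was not called. Rps6 was higher in gated GFP-low cells by 1.09 ± 0.18 (adjusted p = 0.000641), from 8.21, 8.58 and 8.65 in ungated cells, but in GFP-high cells, where the ungated arrays had 9.35, 9.19 and 9.17, its difference of 0.38 ± 0.17 was not called (adjusted p = 0.145). Rps24 1455195_at showed the same arrangement, with 1.15 ± 0.23 in GFP-low cells (adjusted p = 0.00222) and -0.14 ± 0.21 in GFP-high cells. For Rps6 the difference of these contrasts was -0.71 ± 0.25 (adjusted p = 0.155), so its gate difference was not shown to depend on the GFP level. For Rps24 1455195_at that difference is the -1.29 given above. The bright Rps24 probe sets went the other way in GFP-low cells, by -0.35, -0.19, -0.07 and -0.05. The dimmest differed by 0.77, and none of these was called.

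Rpl11 and Rps15 were the members called lower in gated cells in both comparisons. For Rpl11, ungated cells had 12.71, 12.48 and 12.65 (GFP-high) and 12.61, 12.65 and 12.44 (GFP-low), above every gated E14 array and level with E18. The differences were -0.82 ± 0.15 (adjusted p = 0.00105) and -0.92 ± 0.16 (adjusted p = 0.000992). Within the MessageAmp kit the first was -0.92 (adjusted p = 0.0191). Rps15 1416089_at differed by -0.65 ± 0.19 and -0.96 ± 0.20 (adjusted p = 0.021 and 0.00313). The brightest Rps15 probe set, 1416088_a_at, differed by -0.04 and -0.13 and was not called. In GFP-high cells the call of 1416089_at was lost without gated replicate 1 or ungated replicate 2 or 3 (adjusted p = 0.0558, 0.0767 and 0.0581). Rps29 1438859_x_at (-0.53, adjusted p = 0.0198) was lower in gated GFP-high cells and Rps19 (-0.67, adjusted p = 0.0471) in gated GFP-low cells. The Rps29 call was lost without ungated GFP-high replicate 1 or 3 (adjusted p = 0.0627 and 0.0544), and that of Rps19 without any of 5 of the 6 arrays (up to 0.22).

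Rps7 1435593_x_at differed by -1.11 ± 0.34 in GFP-high cells (adjusted p = 0.0279). Rps7 is a small-subunit protein that, like Rpl11, can bind Mdm2. It lay at 10.98, 12.43, 12.54 and 12.65 in gated and 13.38, 13.10 and 13.31 in ungated GFP-high cells, and 1 gated array, replicate 1, stood far below the others. Without that array the difference was -0.72 (adjusted p = 0.0607), and the call was also lost without ungated GFP-high replicate 1 or 3 (adjusted p = 0.0893 and 0.082). The other Rps7 probe set ran from 13.22 to 13.80 on all arrays and was not called.

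The other calls between gated and ungated cells were smaller or lay near the floor. Rpl13a, a large-subunit protein also known for silencing inflammatory mRNAs, was higher in gated cells with 1433928_a_at (0.50 and 0.67, adjusted p = 0.0317 and 0.0103) and 1455001_x_at (0.61 and 0.58, adjusted p = 0.00787 and 0.0187). Its values on 1455001_x_at were 12.63 to 12.82 on the gated E14 and 11.94 to 12.26 on the ungated arrays, while its brightest probe set, 13.47 to 13.89 on all arrays, was not called. A further bright Rpl13a probe set, 1417608_a_at, went the other way, by -0.52 and -0.68, and was not called (adjusted p = 0.139 and 0.0702). Rps3, at the mRNA entry of the small subunit, was higher in gated GFP-high cells by 0.79 on 1455600_at (adjusted p = 0.00447). The brightest Rps3 probe set differed by -0.19 and the dimmest by -0.59, and neither was called. Rpl12, of the stalk base, was higher in gated GFP-low cells by 0.98 (adjusted p = 0.00573). Several calls were lost without single arrays: in GFP-high cells that of Rpl13a 1433928_a_at without any of 4 of the 7 arrays (up to an adjusted p of 0.117), Rpl22 1448398_s_at (0.53) without any of 4 (0.0829), Rpl41 1433530_at (1.05) without ungated replicate 3 (0.0935) and Rps20 1421935_at, a dim probe set (-0.88), without any of 4 (0.1). In GFP-low cells they were Rpl6 (0.47), Rpsa (0.63), Rps27l 1450925_a_at (0.84) and Rpl22 1416603_at (-1.18), each lost without any of 5 of the 6 arrays (up to 0.113, 0.113, 0.165 and 0.206). Rps9 1434624_x_at (0.93) was lost without any of 4 (0.142), and Rpl13a 1455001_x_at and Rps18 1421837_at each without either of 2 (0.0625 and 0.065). That Rps18 probe set, at -1.32, lay at 6.13 or less on all arrays. The Rpl22 probe sets did not move together. In GFP-high cells 1416603_at differed by -0.89 and the brightest, 1453118_s_at, by 0.21, and neither was called. In GFP-low cells 1448398_s_at differed by 0.02 and 1453118_s_at by 0.36, and neither was called.

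Counts over all probe sets of a gene showed how often they differed. Of the 24 genes with several probe sets, 6 had a call in either E18 comparison, 11 and 12 in the gate comparisons and 1 in the ungated GFP contrast and in the difference of contrasts. In the E18 comparison with GFP-high cells 1 gene, Rpl7l1, had all its probe sets called, and in the other comparisons none had. In no comparison were probe sets of 1 gene called in opposite directions. Over the 7 comparisons 33 members (31.4%) of 24 genes were called at least once, against 40.6% of all probe sets, and 72 in none. Only 15 of the 33 were the brightest probe set of their gene.

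The share of members called varied with their level. Of the 59 members with a mean level of 12 or more, 0, 0, 5, 5, 6, 7 and 0 were called in the gated GFP, ungated GFP, E18 against GFP-high, E18 against GFP-low, gate in GFP-high, gate in GFP-low and difference comparisons. For the gate in GFP-high cells this was 10.2%, against 28.4% of all 349 probe sets as bright. Of the 23 members between 8 and 12, 8 (34.8%) and 10 (43.5%) were called in the gate comparisons, against 38.5% and 31.9% of 7711 probe sets in that range. Dimmer members included called ones such as Rps9 1426958_at and Rps24 1455195_at.

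**Figure D4:**
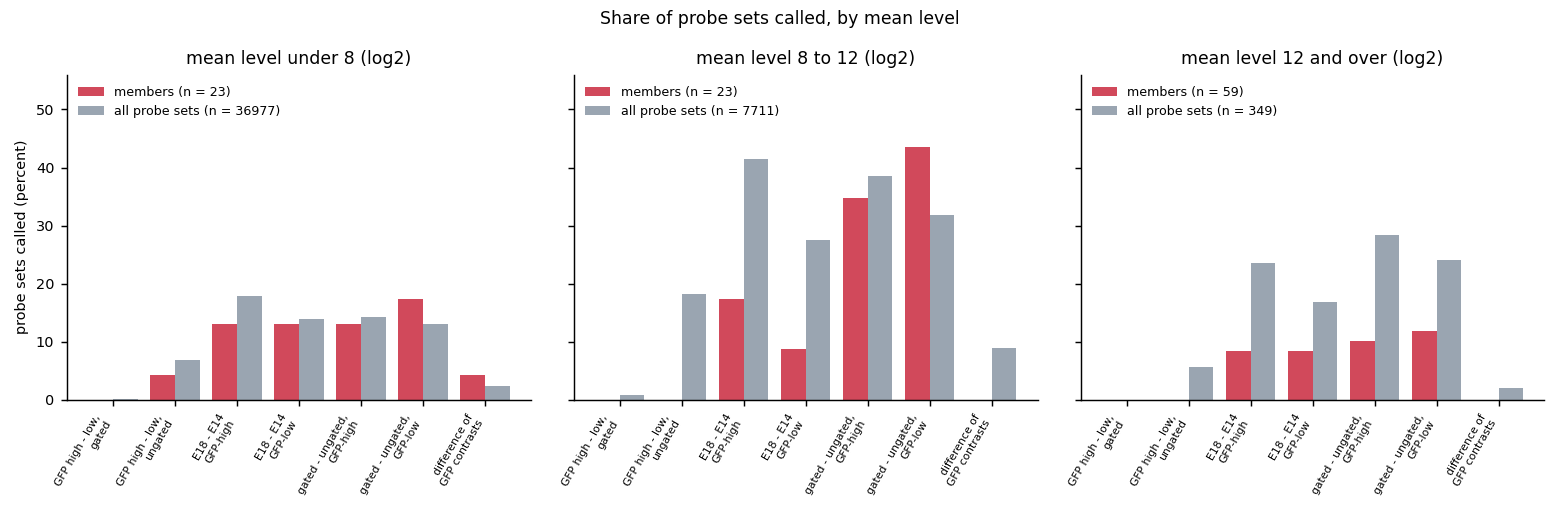
Bars give the percent of probe sets called in each of the 7 comparisons, for ribosomal protein probe sets (red) and all probe sets (grey), in 3 ranges of mean log2 level. Among the brightest probe sets, 8.47% to 11.9% of the 59 members were called in the E18 and gate comparisons, against 16.9% to 28.4% of all 349.

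Among the gated E14 arrays, GFP-high replicate 1 and GFP-low replicate 2 had the lowest Gapdh differences of their groups, 0.54 and 0.92, and many ribosomal protein probe sets were low on both. On these arrays 37 members (35.2%) had the lowest value of their group on both, against 11.9% of all probe sets, and 13 (12.4%) the highest on both, against 12.3%. Against the other 5 gated E14 arrays, 20 members (19%) were lower by at least 0.5, against 6.69% of all probe sets. Rpl22l1 (-1.92), Rps27l 1423254_x_at (-1.71), Rpl37a 1416217_a_at (-1.44) and Rps7 1435593_x_at (-1.36) had the largest such differences. Rpl37a is a zinc-finger protein of the large subunit, and its probe set lay at 11.94 and 10.96 on these arrays and between 12.72 and 13.07 on the other 5. The brightest Rpl37a probe set, 1460543_x_at, differed less, with 13.43 and 12.95 against 13.26 to 13.58. The arrays differ from the others of their group in the Gapdh control, whose part in this was not tested. Without both arrays, 14 and 7 members were called in the E18 comparisons, 15 and 19 in the gate comparisons and 0 in both the gated GFP contrast and the difference of contrasts.

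**Figure D5:**
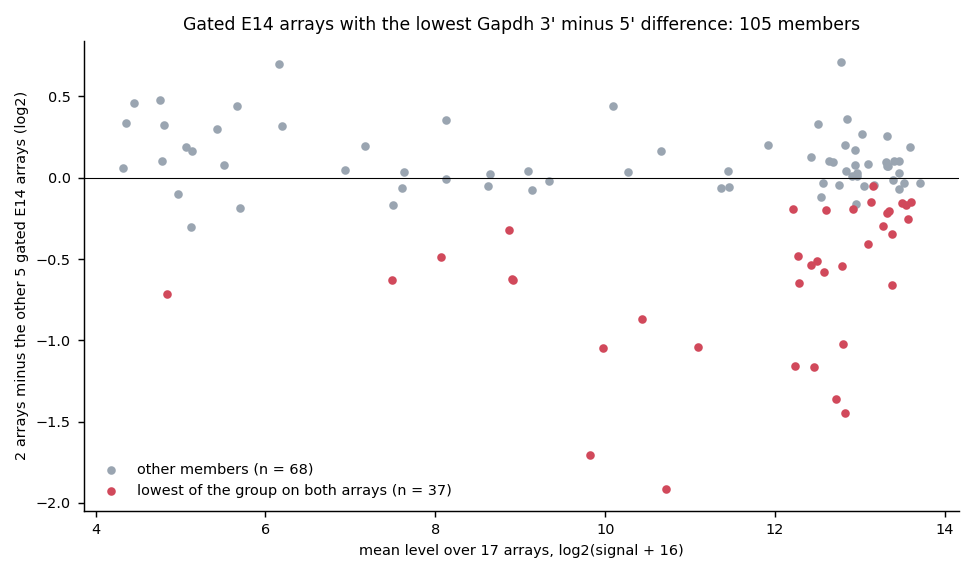
Each point is 1 of the 105 ribosomal protein probe sets: the mean log2 level over 17 arrays (horizontal) against the log2 difference between the 2 gated E14 arrays with the lowest Gapdh difference and the other 5 gated E14 arrays (vertical). The 37 members that were lowest on both arrays are red, and the lowest point is Rpl22l1 at -1.92.

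Genes that act with ribosomal proteins were read from lists, with the brightest probe set of each gene. Ribosome biogenesis factors process and assemble ribosomal RNA in the nucleolus. Of 30 such genes, 3 were called higher and 0 lower in ungated GFP-high against GFP-low cells, against 5.95% and 6.36% of 18193 genes. They were Dkc1 (1.25 ± 0.19, adjusted p = 0.00895), which guides pseudouridylation, Utp20 (1.21 ± 0.20, adjusted p = 0.0113) and Polr1a (1.04 ± 0.21, adjusted p = 0.0232), the large subunit of RNA polymerase I. In the gated GFP contrast 0 of 30 were called with limma, and their median difference was 0.08. At E18 against GFP-high cells 1 was higher and 9 lower, against 9.39% and 15.2% of genes, led by Bysl (-0.99, adjusted p = 0.000649), a 40S assembly factor. Against GFP-low cells 1 was higher and 4 lower, against 5.63% and 10.6% of genes. In gated against ungated GFP-high cells 2 were higher and 6 lower, against 10.8% and 8.13% of genes. In GFP-low cells they were 6 and 3, against 9.49% and 7.49%, with Ncl, which encodes nucleolin, lower in both (-1.86 and -1.75, adjusted p = 0.000139 and 0.000628).

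The mitochondrial ribosomal proteins serve a separate ribosome inside the organelle. Of 76 such genes, 2 were higher and 19 lower at E18 against gated GFP-high cells, where 9.39% and 15.2% of all genes were. Against GFP-low cells 3 were higher and 11 lower, where 5.63% and 10.6% of all genes were. The lowest p against GFP-high cells was that of Mrpl46 (-1.37, adjusted p = 0.000144). In gated against ungated cells 22 were higher and 8 lower (GFP-high) and 19 and 1 (GFP-low), against 10.8% and 8.13%, and 9.49% and 7.49% of genes. The medians were 0.13 and 0.22. In the ungated GFP contrast 1 was higher, Mrpl39 (0.95, adjusted p = 0.0312), and in the gated one none was called.

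Of 16 other genes whose mRNAs carry a TOP tract or that act in elongation, 3 were higher and 1 lower in each E18 comparison, against 9.39% and 15.2% of all genes (GFP-high) and 5.63% and 10.6% (GFP-low). With the gate, 4 rose and 4 fell in GFP-high cells (10.8% and 8.13% of all genes did), while 3 rose and 3 fell in GFP-low cells (9.49% and 7.49%). Btf3, a nascent-chain factor, differed by 2.05 ± 0.32 at E18 against GFP-high cells (adjusted p = 0.000639) and by -2.21 and -2.09 in gated against ungated cells. Its direction in each was that of Rpl11. Eef1d, a subunit of the elongation factor 1 exchange complex, was higher in ungated GFP-high cells by 1.05 ± 0.19 (adjusted p = 0.0167). Eef1a2, the elongation factor form of neurons and muscle, differed by -2.86 between ungated GFP-high and GFP-low cells (adjusted p = 0.00164). In the gated GFP contrast none of the 16 was called. Eef1a2 is not among the 16.

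Markers of other cells that the sorts could hold were low. The summed log2 signal of the endothelial markers was between 5.12 and 7.53, and of the microglia and macrophage markers between 6.04 and 7.76. That of the 3 erythroid markers on the array was between 3.44 and 7.42. At E18 the erythroid sum was 5.71 to 7.42, against at most 5.70 on any E14 array, and 1 of 3 genes was called higher in both comparisons. The microglia sum was 7.29 to 7.76 at E18, against 6.25 to 6.66 and 6.12 to 7.08 in gated E14 GFP-high and GFP-low cells, with 0 of 5 called. The 5 Cajal-Retzius markers, of an early neuron of the cortical surface, were at 11.73 to 12.22 in gated E14 GFP-low cells and at 9.03 to 9.44 in gated GFP-high cells, where 4 of 5 were called lower. Their part in the gated GFP values was not tested.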

How the data were processed

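The values are the intensity of 45101 probe sets on 17 Affymetrix mouse arrays as deposited by the authors, 1 linear signal per probe set. RNA was isolated with an RNeasy kit and labelled with biotin, per the labels. The software that summarised the probes is not named in the sources used here. Every array had the same mean, 150.0, after the lowest and highest 2% of values were removed. The array median signal was 24.1 to 44.9. The number of arrays limits the precision.

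Groups came from the sample titles. After 64 control probe sets were set aside, log2(signal + 16) was quantile-normalised over the 17 arrays and 45037 probe sets were fitted with limma 3.58.1 (lmFit, eBayes, two-sided) in R 4.3.3. Contrasts among gated groups used 11 arrays, the ungated GFP contrast 6 and the others 17. Benjamini-Hochberg adjustment ran over all 45037 probe sets, and a probe set was called at an adjusted p under 0.05. On this scale the fold change of a dim gene comes out too small. A ± after a difference is its standard error. Figures used Python 3.11.15 and matplotlib 3.10.9. The fit was tested on simulated data.

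Symbols came from the platform annotation; all 49 genes matched RefSeq (GRCm38.p6) by Entrez identifier, with 0 symbols changed. Probe sets with suffix s_at (3) or x_at (40) can bind several transcripts of near-identical genes or pseudogenes, so their values are uncertain per gene. Named members were, per comparison, the 4 largest rises and falls among called brightest probe sets with groups that do not overlap. A fixed list of paralogs, stalk proteins, Rpsa and Rps6, and genes whose probe sets differ most, were also named. Of other lists, the plan was to name up to 2 genes with the lowest p. Where 3 were named, this went beyond the plan. Further called members, such as Rps15, Rpl41, Rps7, Rpl8, Rpl13a, Rps3 and Rpl12, and also Rpl37a, and Btf3, Eef1d and Mrpl39 were named after their values were seen. The members and lists were chosen with earlier results of these data known. No 2 arrays were identical. Alternatives covered the scale, pseudocount, filter, suffix, variance trend, array set, kit, control covariates, replicate block and leaving out each array.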

Additional observations from a re-analysis of the deposited data

Results flagged for a closer look

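In each group of 4 arrays the array farthest from the others was compared with the group's range, for 43 probe sets and 4 values of each array. Of 94 such groups 9 stood out, where chance gives about 1 in 20 for a single group. The probe sets were those called in these data or on the fixed list, and they share the same arrays. The count therefore cannot be read against chance. In gated E14 GFP-high cells the array that stood out was replicate 1 each time. Its Gapdh difference was 0.54 against 1.56 to 1.70 on the others, and its median of the ribosomal protein genes 13.03 against 12.84 to 12.85. On that array Rpl22l1 was at 9.15 against 10.84 to 11.07, Rps7 1435593_x_at at 10.98 against 12.43 to 12.65, and Rpl3l, near the floor, at 4.90 against 4.07 to 4.15. At E18, replicate 2 was low for Rps10 1439374_x_at at 8.30 against 9.11 to 9.17, for Rpl6 at 13.01 against 13.13 to 13.14 and for Rps9 1433689_s_at at 12.74 against 12.88. Rpl22 1448398_s_at was low on E18 replicate 5, at 10.77 against 11.05 to 11.09.

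The GFP contrast of Rps24 1455195_at differed between gated and ungated cells by -1.29, with the adjusted p and the arrays it rests on given above.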

How the results depend on the processing

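Of the calls made, only those of Rpl27a 1437729_at (in both gate comparisons) held under each alternative run. Without any 1 array, the number of members called was 0 to 1 in the gated and the ungated GFP contrasts, 9 to 13 and 6 to 10 at E18 against GFP-high and GFP-low cells, 14 to 20 in the gate comparison of GFP-low cells, 12 to 17 in that of GFP-high cells, and 0 to 1 in the difference of contrasts. The main counts, in the same order, were 0, 1, 12, 10, 21, 17 and 1. In the gated GFP contrast 1 member was called with a pseudocount of 64, without the dimmest 40% of probe sets, with an intensity trend and with all 17 arrays. In the ungated GFP contrast these settings gave 5, 2, 7 and 4, and a pseudocount of 1 and the Affymetrix kit alone gave 0. At E18 against GFP-high and GFP-low cells a pseudocount of 64 gave 20 and 22 calls, and 1 probe set per gene 7 and 5. An intensity trend gave 20 against GFP-low cells. With the Gapdh difference as a covariate most members called at E18 were higher and not lower, as given above. In the gate comparisons of GFP-high and GFP-low cells a pseudocount of 64 gave 28 and 32, 1 probe set per gene 6 and 12, and the kit as a covariate 6 and 2. Without s_at and x_at probe sets 11 of the 17 were called, and within the MessageAmp kit 8. The Gapdh difference as a covariate gave 12 in GFP-low cells. The difference of contrasts had 3 calls with a pseudocount of 64, 2 without the dimmest 40% and with the trend, and 0 with a pseudocount of 1, 1 probe set per gene, the kit as a covariate or without both arrays low in the Gapdh difference, the last chosen after seeing the data. The cause was not tested, except that 1 probe set per gene tests fewer members.

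The 18S signal did not overlap between the groups of the E18 comparisons or of the gate comparisons. With it as a covariate, 0 and 0 members were called at E18 and 2 and 5 in the gate comparisons, and the cause was not tested. Signs turned there for Rpl8 (0.60), Rps10 1434854_a_at (0.10) and Rpl7l1 1439780_at (0.11) against GFP-high cells, for Rps10 1439374_x_at (0.0092) and Rpl7l1 1439780_at (0.071) against GFP-low cells and for Rps10 1434854_a_at (-0.10) in the GFP-high gate comparison. With the Gapdh covariate Rps27l 1450925_a_at turned to -0.060 in the GFP-low gate comparison.

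Arrays with the same replicate number did not deviate together: the correlations after group means were removed lay between -0.17 and 0.05 over 27 pairs of arrays, so the numbers were not taken to pair samples. With a replicate block, 0, 1, 6, 4, 14, 16 and 0 members were called in the gated GFP, ungated GFP, E18 against GFP-high, E18 against GFP-low, GFP-high gate, GFP-low gate and difference comparisons. The number of arrays and a signal near background for the dimmest members limit what can be seen.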
